A study of Mus musculus with 7 samples.

Results

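The oxidative phosphorylation subunits are the protein parts of respiratory complexes I, III and IV and of the ATP synthase, complex V. They were chosen by symbol: names that begin with Nduf and a subunit letter (a, b, c, s or v), Uqcr, Cox4 to Cox8 or Atp5, and the mitochondrial names mt-Nd, mt-Co, mt-Atp and mt-Cytb, leaving out names with "-ps". This gave 98 of 55491 gene rows, of which 85 are encoded in the nucleus and 13 in the mitochondrial genome. The nuclear members were 40 for complex I, 8 for complex III, 19 for complex IV and 18 for complex V, and the mitochondrial ones 7, 1, 3 and 2. All nuclear members but Cox7b2 and Cox8c had a UMI (unique molecular identifier, 1 per captured RNA molecule). The symbol rule also took in the pseudogene rows Ndufb4c, Cox6c2, Ndufa11b and Ndufs6b and a second Atp5o row, and it left out complex II, Cyc1 and Ndufab1, which were counted as other genes of the pathway.

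The series holds droplet single-cell RNA sequencing (5′ chemistry) of cells from brains with CT-2A tumours, a mouse glioma line, from 7 mice with 1 library each. Every mouse had both Siglece alleles floxed (Siglece fl/fl, B6.129P2-Siglece tm1Bcgen), was 8 to 12 weeks old and received 2.5 mg tamoxifen by intraperitoneal injection, daily from day 7 until day 21 and every other day after that. The 4 mice labelled Siglece KO also carried Sall1CreERT2 (B6;129-Sall1 tm5(cre/ERT2)Ryn), a tamoxifen-activated Cre under the control of a gene that marks microglia among brain myeloid cells, and the 3 labelled WT did not. The tumour-bearing hemisphere was dissociated, frozen, thawed and sorted for live cells positive for CD45, CD11b or both, so the sort set which cell types were present. The authors named 23 cell types, which were also pooled here into 9 classes (microglia, monocyte-derived cells, mo-DCs, conventional and plasmacytoid dendritic cells, T, NK, B and tumour or stromal cells).

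The libraries held 1410 to 5856 cells with a median of 4479 to 9554 UMIs per cell, 28644 cells in all. Of the distinct cell barcodes, 460 occurred in more than 1 library (3.23% of cells). Levels are given as CPM, the UMIs of a gene scaled to 1000000 UMIs of all genes, with UMIs summed over the cells of a class or type in a library; a library entered with at least 20 cells. Most listed markers were highest in their own class (microglia 7 of 8, plasmacytoid 6 of 6, T 6 of 7, NK 5 of 5, B 5 of 5), but only 4 of 8 monocyte-derived ones were, and the glial markers Olig1 and Gfap were at 0 in tumour or stromal cells. Siglece, the targeted gene, stood at 10.7, 19.6 and 0 CPM in the microglia of KO mice 1, 2 and 4 and at 36.1, 45.9 and 18.6 in WT mice 1 to 3, so the groups overlapped. The microglia of KO mouse 2 held 51086 UMIs of all genes, where 1 UMI stands for 19.6 CPM, so the overlap rests on 1 UMI. KO mouse 3 had 13 microglia and was left out of this class.

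Complex I takes electrons from NADH and complex III passes them on to cytochrome c, from which complex IV hands them to oxygen; the proton gradient built on the way drives ATP synthase. The core subunits of these complexes are split between 2 genomes, so that transcripts made in the mitochondrion and in the nucleus have to be matched at the protein level. Immune cells are known to change their reliance on this pathway with activation, division and differentiation.

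Near-identical copies of mitochondrial genes are counted in rows of their own. A stretch of mouse chromosome 1 (GRCm38, chr1:24611535-24615565, minus strand) holds 6 annotated unprocessed pseudogenes that copy mt-Nd4, mt-Nd4l, mt-Nd3, mt-Co3, mt-Atp6 and mt-Co2. The first 60 bases of 3 genes and their copies (GENCODE M21 transcripts) are printed because each gene and its copy are identical or nearly so over these bases; capitals mark the only position at which a gene and its copy differ.
mt-Co2: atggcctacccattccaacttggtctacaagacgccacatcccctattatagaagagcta
Gm28661: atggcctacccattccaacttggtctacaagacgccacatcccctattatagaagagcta
mt-Co3: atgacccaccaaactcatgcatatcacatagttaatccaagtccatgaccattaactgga
Gm28437: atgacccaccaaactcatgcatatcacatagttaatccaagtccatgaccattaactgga
mt-Nd3: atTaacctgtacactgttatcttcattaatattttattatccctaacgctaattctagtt
Gm28438: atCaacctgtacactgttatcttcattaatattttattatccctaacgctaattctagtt
mt-Co2, a catalytic subunit of complex IV (chrM:7013-7696), and Gm28661 had 0 mismatches over 681 bases, as did mt-Atp6 (chrM:7927-8607) and Gm10925 over 678 bases, and mt-Co3 (chrM:8607-9390) and Gm28437 over 783 bases. For mt-Nd3 (chrM:9459-9806) and Gm28438 the comparison over 345 bases found 1 substitution, T3C, counted from 1 at the gene's 5′ end. The deposited UMIs were nearly the same for gene and copy: 189767 and 184785 for mt-Co2, 240104 and 237869 for mt-Co3, 173534 and 164793 for mt-Atp6, and 4504 and 4486 for mt-Nd3. In 99.2% of cells with either, mt-Co2 and its copy were within 0.5 UMI of each other, and about as often for mt-Co3 (99.7%), mt-Nd3 (99.1%) and mt-Atp6 (98.6%). mt-Nd4l had 78724 UMIs against 52954 for Gm10222, and mt-Nd4, which is longer than its copy, had 66472 against 5618 for Gm28439. Among nonzero values of mt-Co2, 51.3% were not whole numbers, against 7.51% in the whole matrix. Levels below are those of the rows with mitochondrial names; comparisons between cell types or genotypes use the same rows on both sides.

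**Figure D1:**
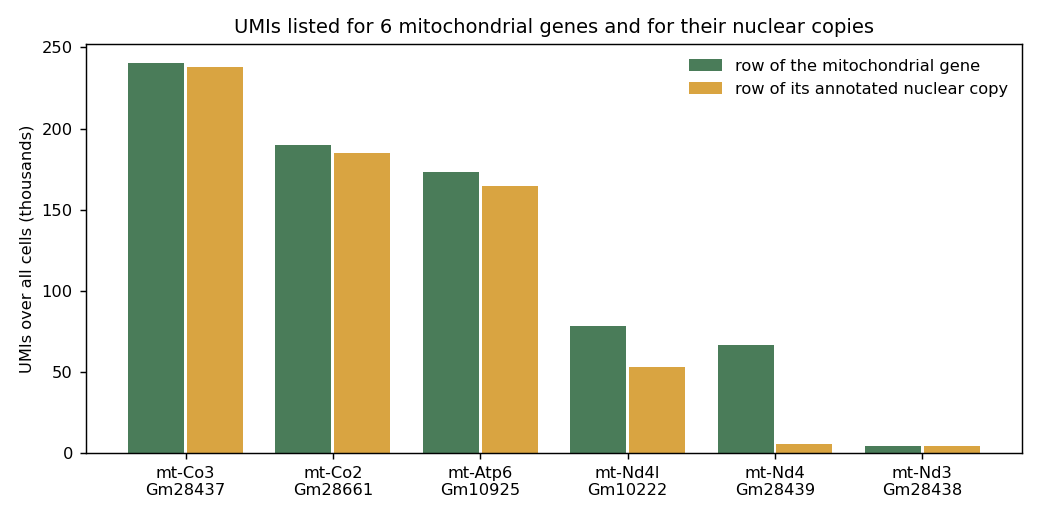
Bars give the UMIs (over all cells, in units of 1000) listed for 6 mitochondrial genes and for the chromosome 1 pseudogene that copies each. The paired bars of mt-Co3, mt-Co2, mt-Atp6 and mt-Nd3 are almost equal (ratios of copy to gene 0.950 to 0.996), while the ratio is 0.673 for mt-Nd4l and 0.0845 for mt-Nd4.

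Over all cells the nuclear members held 1.67% of UMIs and the mitochondrial members 0.976%. The latter share leaves out the rows of the chromosome 1 copies, so mitochondrial sums are lower than with them. In monocyte-derived cells, for example, the mean mitochondrial sum was 14439 CPM without and 19067 with the copies, against a nuclear sum of 15538. The summed level of the nuclear members lay between 12000 and 22000 CPM in 22 of 23 cell types. It was highest in proliferating CD4 T cells and Tregs (21047 ± 799, SD, n = 6 mice) and proliferating CD8 T cells (20865 ± 1096, n = 6), and lowest among the 22 in naive or early CD4 T cells (12845 ± 800, n = 7) and in the main microglia cluster (12919 ± 337, n = 3, all WT). The exception was the cluster that the authors named low-quality or activated microglia, at 3853 ± 628 (n = 5). These are shares of each cell type's RNA, and sums of this kind cannot tell a change in members from a change in the rest of the transcriptome.

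The mitochondrial members followed another order. They were highest in low-quality or activated microglia (33715 ± 5819 CPM, n = 5), followed by proliferating macrophages (20273 ± 2270, n = 6), P5 macrophages (17473 ± 1787, n = 7) and plasmacytoid dendritic cells (15255 ± 1491, n = 7). Tumour or stromal cells had the lowest sum (6360 ± 760, n = 5), near that of the conventional dendritic types cDC2 (7114 ± 1436, n = 7) and cDC1 (7705 ± 732, n = 7), whose SDs overlap. Across the 23 cell types, which share libraries, the nuclear and mitochondrial sums had a Spearman rho of -0.356 and a Pearson r of -0.648. Low-quality or activated microglia lay at the extreme of both sums, and neither value was computed without them. The nuclear sums of different complexes ran together: complexes I, III and IV had a rho of 0.903, 0.889 and 0.789 with complex V. Median UMIs per cell also moved with the nuclear sum (rho 0.546), as did the median percentage of ribosomal protein UMIs (rho 0.50). With the mitochondrial sum, median UMIs had a rho of -0.223 and the ribosomal percentage a rho of -0.414. The part of either in these levels was not tested.

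**Figure D2:**
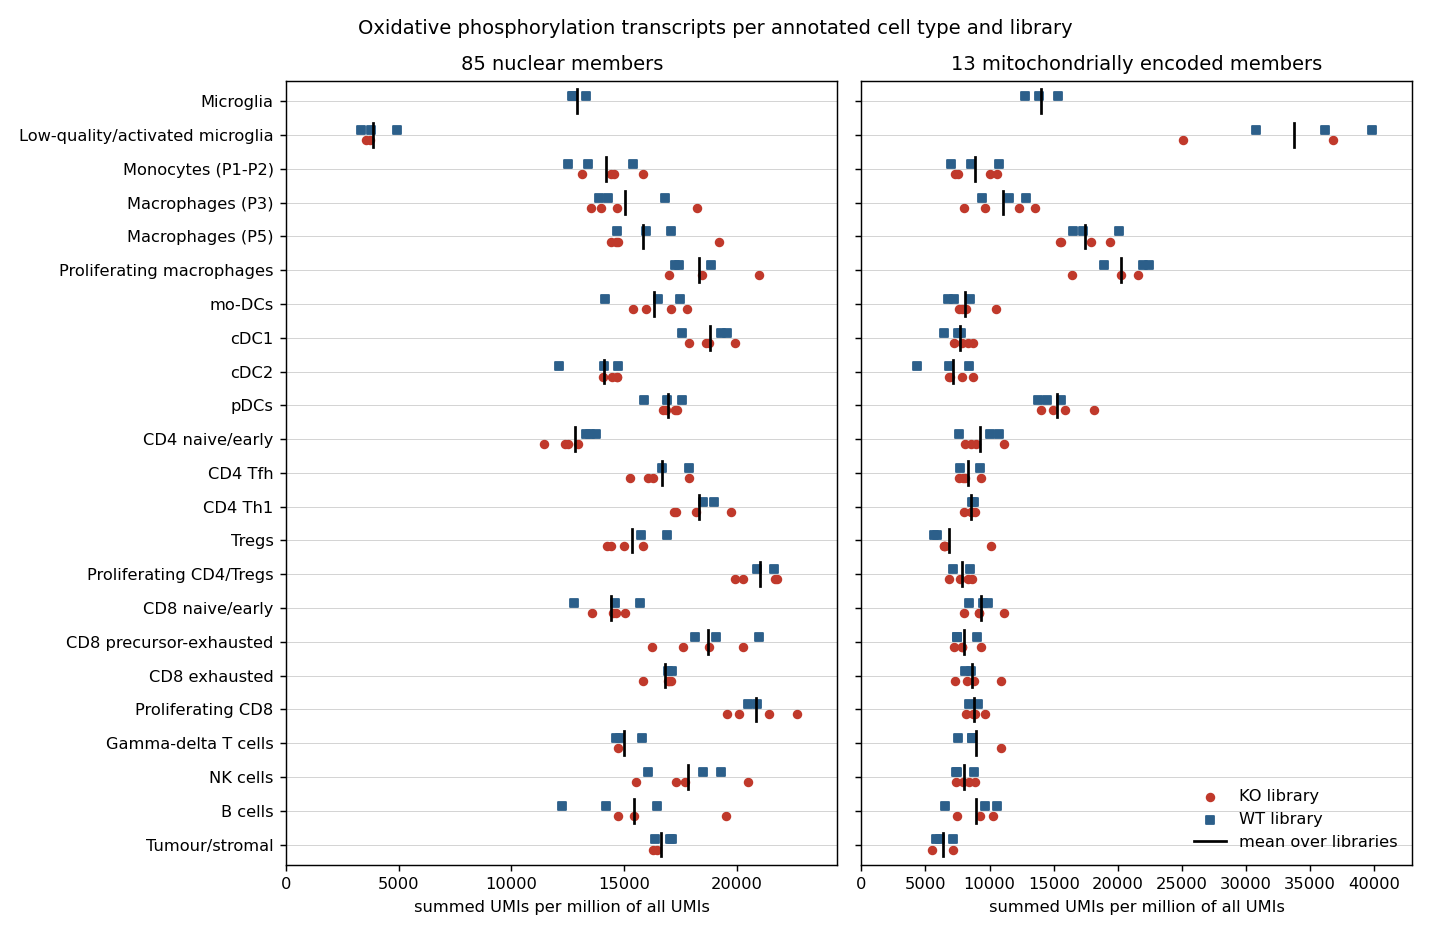
Summed CPM of the 85 nuclear (left) and the 13 mitochondrially encoded (right) members in 23 annotated cell types; each point is a library (KO circles, WT squares) and the bar is the mean over libraries with at least 20 cells. Low-quality or activated microglia stand apart on both sides, with the lowest nuclear sum (mean 3853) and the highest mitochondrial one (mean 33715).

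Cell types of the same mice were compared in 7 contrasts, with edgeR's quasi-likelihood test, mouse as a block, TMM scaling and Benjamini-Hochberg adjustment over all genes tested; a gene is called at an adjusted p under 0.05. In all edgeR results SE stands for the absolute log2 fold change divided by the square root of the test's F statistic. It is not a standard error taken from the fit. The authors named the types from the same cells, so each test describes groups that gene expression had already separated. The filter on low counts used both types together, so a member could enter a test through the type in which it had more UMIs. TMM sets the typical gene near no change; without it the median of all genes moved by more than 0.1 (log2) in 4 of the contrasts, and counts under both scalings are given there.

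In microglia, 73 of 79 nuclear members tested were lower than in monocyte-derived cells, 1 was higher and 5 were not called (6 mice). The 79 include Cox4i2, which had 0 UMIs in microglia and entered through monocyte-derived cells alone. Over all genes, 23.9% were lower and 19.2% higher. The median log2 fold change of the nuclear members was -1.19, against -0.03 for all genes. Without TMM the median of all genes was 0.40 and that of nuclear members -0.76, with 65 lower and 3 higher. Every complex took part: 35 of 37 complex I members, 8 of 8 of complex III, 13 of 16 of complex IV and 17 of 18 of complex V were lower. Atp5md, a small membrane subunit of ATP synthase, ranged from 39.1 to 123 CPM in microglia (median 114) and from 179 to 317 (median 246) in monocyte-derived cells. These ranges did not overlap, and the log2 fold change was -1.70 (SE 0.18, adjusted p = 1.1e-19). Atp5h, in the stalk of the same complex, ranged from 58.7 to 219 (median 165) against 336 to 413 (median 363), again without overlap (log2 fold change -1.57, SE 0.18).

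Most microglia belonged to the low-quality or activated cluster (251 cells against 163 in the main cluster), whose cells had a median of 2222 UMIs, 4.77% mitochondrial and 2.58% ribosomal protein UMIs. In the main cluster the medians were 6226 UMIs, 2.06% and 10.3%. A dissociation-stress list of 6 genes summed to 14920 to 22870 CPM over libraries in the former and 10560 to 15520 in the latter. In an alternative chosen after seeing the data, the main cluster alone (3 WT mice) had 38 of 79 nuclear members lower and 2 higher than monocyte-derived cells, with a median of -0.46. The nuclear decrease was smaller in that subset, and 7 of the 13 mitochondrial members turned from above 0 to below it.

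With both clusters together, 4 mitochondrial members were called higher in microglia: the complex I genes mt-Nd1 (log2 fold change 0.40), mt-Nd2 (0.59), mt-Nd3 (0.64) and mt-Nd6 (0.38). The count was 1 without WT mouse 1 and 2 without WT mouse 2 or WT mouse 3. mt-Nd2 ranged from 857 to 1495 CPM in microglia (median 1158) and from 475 to 599 (median 552) in monocyte-derived cells, with no overlap. The other 9 were not called, among them mt-Co1, the largest subunit of complex IV, at 4962 to 7491 (median 5956) against 3933 to 5255 (median 4845). Its log2 fold change was -0.11 with TMM and 0.37 without, and without TMM all 13 were called higher. In the main cluster alone 0 were called higher and 5 lower, and mt-Cytb, for example, stood at -0.16 there against 0.37 for both clusters.

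Within monocyte-derived cells, P3 and P5 macrophages pooled had more of every mitochondrial member than monocytes of the same 7 mice. In this test 13 of 13 were called higher, by log2 0.51 (mt-Nd5) to 0.99 (mt-Nd4l), also without TMM. The median percentage of mitochondrial UMIs per cell, which includes the members, was 1.550% in monocytes, 1.755% in P3 and 2.703% in P5 macrophages. P3 and P5 were not tested apart, so the part of each in the rise is not known. mt-Cytb, the mitochondrial subunit of complex III, ranged from 1669 to 2524 CPM in macrophages (median 2124) and from 695 to 1584 (median 1035) in monocytes. Its ranges did not overlap, and it was higher in 7 of 7 mice (log2 fold change 0.82, SE 0.08). Microglia markers (8 genes) also summed to more in the macrophages, 508 to 942 CPM in P3 and 1097 to 1952 in P5, against 341 to 570 in monocytes; their part in this difference was not tested. The nuclear members showed no such shift. Of 79 tested, 10 were higher and 8 lower, against 17.3% and 18.5% of all genes, with a median of 0.02; 6 were higher without WT mouse 1 and 4 lower without WT mouse 3. Without TMM 29 were higher and 3 lower, while the median of all genes stood at 0.18 and that of the nuclear members at 0.15. Cox4i2, an alternative subunit 4 of complex IV that is known to respond to low oxygen, had the largest rise (log2 fold change 1.33, SE 0.27) at low levels: 1.33 to 26.1 (median 9.98) against 0.90 to 6.50 (median 3.13), which overlap. Cox6b2, a form of subunit 6b known from testis, was lower (-1.01, SE 0.26), as was the complex I subunit Ndufs4 (-0.37, SE 0.09).

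Proliferating macrophages were compared with P3 and P5 macrophages in 6 mice. As a check of the name, Mki67 averaged 779 CPM in them, against 44.4 in P3 and 96.9 in P5. Their cells had a median of 10050 UMIs, against 6073 and 6437, and the part of depth in the counts was not tested. Of 79 nuclear members, 18 were higher and 5 lower (13.5% and 15.2% of all genes), and 9 of 13 mitochondrial members were higher and 0 lower. Without TMM, 32 nuclear members were higher and 4 lower. Ndufa5, an accessory subunit of complex I, ranged from 110 to 162 (median 128) against 64.7 to 99.4 (median 84.7). The ranges did not overlap (log2 fold change 0.50, SE 0.09). Ndufa9, Uqcr10 and mt-Nd4l were also higher in 6 of 6 mice (0.50, 0.39 and 0.46). Against that direction, Cox7a2l fell by 0.56 (SE 0.10) and Ndufa6 by 0.38 (SE 0.09), both in 6 of 6 mice. The second Atp5o row, whose gene model overlaps others, had a log2 fold change of -1.46 (SE 0.55) on 2.52 against 4.18 CPM, a level close to its noise. Cytochrome c (Cycs), the complex III subunit Cyc1 and Ndufab1, an acyl carrier protein that is also part of complex I, were all higher.

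Plasmacytoid dendritic cells differed from conventional dendritic cells in opposite directions for the members of the nuclear and the mitochondrial genome (7 mice). Of 75 nuclear members, 44 were lower and 6 higher, where 32.3% of all genes were lower and 28.0% higher; the median was -0.32. Without TMM, 31 were lower and 13 higher. Complex V carried the largest share, with 16 of 17 members lower, against 14 of 37 for complex I. Uqcrb, a subunit of complex III, ranged from 142 to 202 CPM (median 190) in plasmacytoid and from 240 to 323 (median 279) in conventional cells. Its ranges did not overlap (log2 fold change -0.80, SE 0.09), and Atp5md (-0.83), Cox7b (-0.82) and Cox6a1 (-0.80) fell about as much. Of the mitochondrial members 12 of 13 were higher, with mt-Nd4 (1.38), mt-Nd5 (1.16) and mt-Nd3 (1.03) the most. mt-Nd4 ranged from 538 to 789 (median 730) against 192 to 273 (median 247), without overlap. mt-Nd6, the member encoded on the other strand of the mitochondrial genome, was the exception at -0.34 (SE 0.15, adjusted p = 0.0562). Cytochrome c, Cycs, was lower in all 7 mice (433 to 738 CPM, median 511, in conventional and 126 to 277, median 158, in plasmacytoid cells; log2 fold change -1.89), as were Ndufab1 (-0.96) and Sdhd of complex II (-0.97). Marker lists made for other cells also differed between these classes: T cell markers summed to 304 to 569 CPM in plasmacytoid and 8.99 to 116 in conventional cells, monocyte-derived markers to 5185 to 7873 and 829.1 to 2123, and B cell markers to 320 to 893 and 5.66 to 93.1. Not all of these markers are particular to the cells they were listed for. Cd4 of the T cell list and 4 of 8 monocyte-derived markers (Ly6c2, Ccr2, Plac8 and Vcan) were highest in another class. Mki67 averaged 8.41 CPM in plasmacytoid cells, 192 in cDC1 and 50.1 in cDC2. Cells had a median of 6519 UMIs in plasmacytoid and 11238.5 in conventional cells. The part of these in the differences was not tested.

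T cells had less of all 13 mitochondrial members than monocyte-derived cells, in 7 of 7 mice each and under both scalings. The log2 fold changes ran from -1.41 for mt-Nd4l to -0.55 for mt-Nd3, with a median of -0.999. mt-Co1 ranged from 2414 to 3010 CPM (median 2593) in T cells and from 3749 to 5255 (median 4805) in monocyte-derived cells, with no overlap. Of 80 nuclear members 16 were higher, 34 lower and 30 not called, where 37.2% of all genes were higher and 35.2% lower. Their direction changed with the scaling: without TMM 32 were higher and 17 lower, the members' median went from -0.13 to 0.11 and that of all genes from 0.05 to 0.28. Relative to all genes the members' median was -0.18 either way.

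Single nuclear members stood out in T cells. Ndufa4, a subunit first assigned to complex I and now to complex IV (counted by its name with complex I here, as was Ndufa4l2), ranged from 156 to 274 CPM (median 220) against 72.8 to 121 (median 78.3). It did not overlap and was the largest rise (log2 fold change 1.03, SE 0.08, adjusted p = 2.09e-07). Uqcrh, the hinge subunit of complex III, ranged from 527 to 684 (median 610) against 261 to 353 (median 320), also without overlap (0.70, SE 0.06). Uqcrc2 (0.52) and Atp5d (0.46) were higher in 7 of 7 mice. At the other end Cox4i2 (-6.45), Cox6a2 (-1.74) and Cox6b2 (-1.56) were lower. T cells had 7 UMIs of Cox4i2 against 487 in monocyte-derived cells, so the size of that fitted change rests on few UMIs; the counts were 67 and 141 for Cox6a2 and 147 and 273 for Cox6b2. Of the assembly factors of these complexes, 14 of 27 were higher and 4 lower (37.2% and 35.2% of all genes); Surf1 (0.78) and Cox11 (0.81) were among those higher. Tfam, which packages mitochondrial DNA and helps start its transcription, was higher (1.01, SE 0.10), while the nuclear receptor Esrra was lower (-1.17, SE 0.09).

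**Figure D3:**
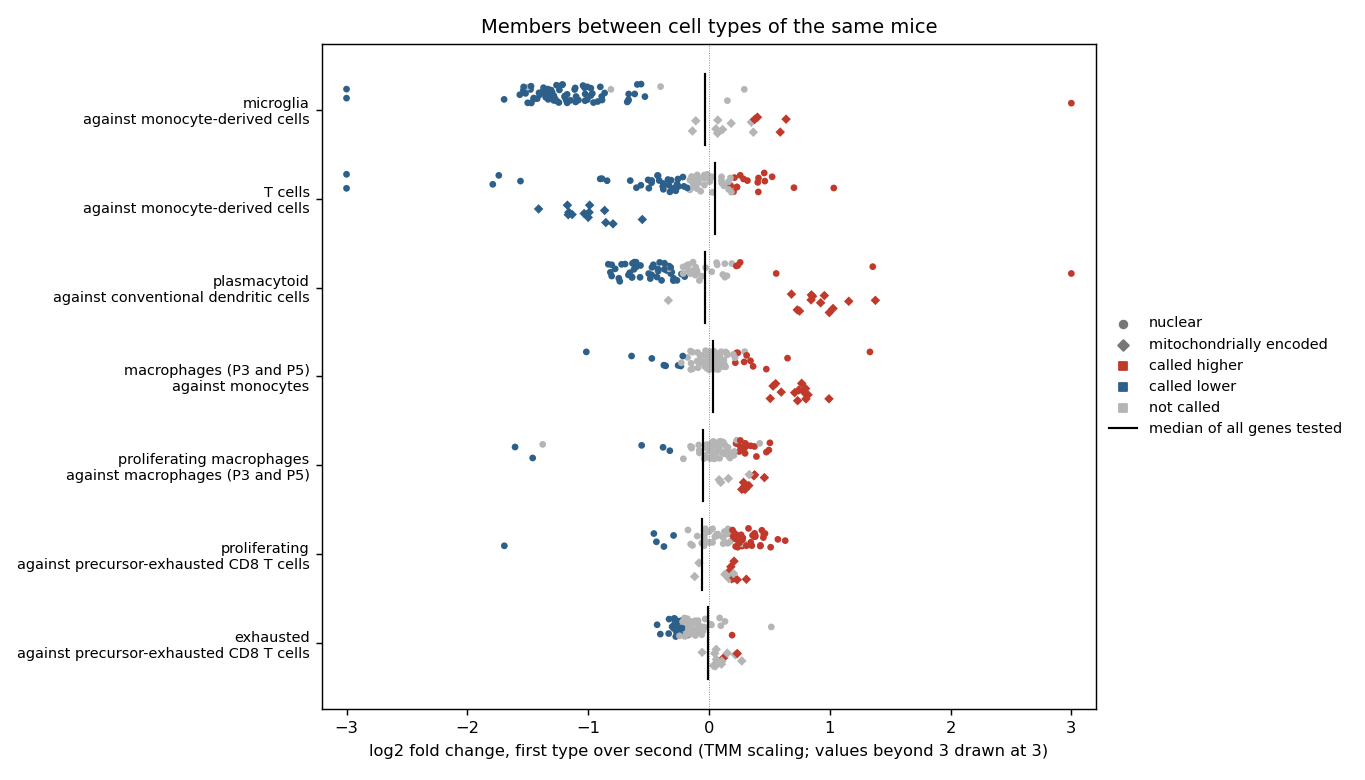
Each point is the log2 fold change of a member (circles nuclear, diamonds mitochondrially encoded) in 1 of 7 contrasts between cell types of the same mice, red where called higher, blue where called lower and grey where not called; the vertical bar is the median of all genes tested, and values beyond 3 are drawn at 3. Nuclear members lie far to the left in microglia (median -1.19), and mitochondrial members lie to the left in T cells (median -0.999) and to the right in plasmacytoid dendritic cells (median 0.86) and macrophages (median 0.74).

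In dividing CD8 T cells most called members were higher than in precursor-exhausted CD8 T cells (6 mice): 36 of 74 nuclear members rose and 5 fell, against 19.1% and 20% of all genes. The median was 0.20, and without TMM the counts were 42 and 5. Mki67 averaged 917 against 83.4 CPM, and cells had a median of 10372 against 5568 UMIs, whose part in the counts was not tested. Complex I gave 18 of 37 higher, complex III 5 of 8, complex IV 4 of 12 and complex V 9 of 17. Atp5o (the row of ENSMUSG00000022956), a stalk subunit of ATP synthase, ranged from 284 to 373 CPM (median 349) against 182 to 253 (median 217). It did not overlap and had the largest rise (log2 fold change 0.63, SE 0.07). Ndufa4 (0.57), Atp5j (0.51) and Atp5g3 (0.46) followed. Those that fell in 6 of 6 mice included Cox7a2l (-0.46), Uqcrh (-0.43), Ndufa6 (-0.37) and Ndufa13 (-0.29). Cox7a2l and Ndufa6 thus had the same sign in dividing CD8 T cells as in dividing macrophages. Of the mitochondrial members 7 of 13 were higher, with the largest at 0.31 (mt-Cytb), but 4 without WT mouse 3. Cyc1, Cycs and Ndufab1 were again all higher, and so was Tfam (0.68).

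Exhausted CD8 T cells had lower nuclear members than precursor-exhausted ones, by small amounts (6 mice). Of 75 tested, 26 were lower and 1 higher, against 9.52% and 9.10% of all genes, and the median was -0.18. The count of lower members was 13 without KO mouse 4, 14 without WT mouse 3 and 17 without TMM. Cox5a, a subunit of complex IV, ranged from 314 to 490 (median 373) against 360 to 592 (median 495) CPM. Its ranges overlapped, but it was lower in 6 of 6 mice (log2 fold change -0.33, SE 0.07). Ndufc2 (-0.43), Uqcr11 (-0.40) and Atp5g1 (-0.33) were lower in the same way, and Ndufa6 was the 1 that was higher (0.19, SE 0.07), a call lost under DESeq2, without the filter on low counts, and without KO mouse 4, WT mouse 2 or WT mouse 3. Of the mitochondrial members mt-Nd5 (0.23) and mt-Co1 (0.12) were higher and 0 lower, but 0 were higher without KO mouse 4. The dissociation-stress list summed to 2245 to 3774 CPM in exhausted and 6014 to 17510 in precursor-exhausted cells; its part in these differences was not tested.

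Some subunits exist as isoforms made from different genes, and these showed the sharpest differences between cell types. Cox6a2 (chr7:128205435-128206387, GRCm38), known as the heart and muscle form of complex IV subunit 6a, ranged from 714 to 1193 CPM in plasmacytoid dendritic cells (median 1119) and from 0 to 5.58 in conventional ones (median 0.68). It is itself on the list of plasmacytoid markers used here, and it entered the test through plasmacytoid cells. The types were also named from the same cells, so its fitted change describes the groups and no p is given. The log2 fold change was 9.03 (SE 0.52), while Cox6a1, the widely expressed form, was lower in the same cells (207 to 273, median 257, against 344 to 412, median 404). In the main microglia cluster Cox6a2 averaged 68.9 ± 13.4 (SD, n = 3), the next level in order, and it was higher in microglia than in monocyte-derived cells in 5 of 6 mice (log2 fold change 3.57, SE 0.31). The 6 plasmacytoid markers summed to 1121 to 1508 CPM in that cluster, 389 to 1084 in monocyte-derived cells and 12060 to 14850 in plasmacytoid cells. In the main microglia cluster the sum was mostly Bst2 (mean 851, and 631 to 804 in monocytes, P3 and P5 macrophages) and Siglech (356), which is also on the microglia list, while Ccr9, Klk1 and Ly6d averaged 0.91, 0 and 1.21. In plasmacytoid cells these 5 averaged 4213, 2397, 1029, 2477 and 2358. The part of plasmacytoid RNA in the Cox6a2 level was not tested beyond these values.

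Cox4i2 (chr2:152754173-152765037) had 574 UMIs in all. In monocyte-derived cells it ranged from 1.04 to 28.4 CPM (median 8.88), with KO mouse 1 the highest. Microglia of all 7 libraries, KO mouse 3 included here, had 0 of 1799869 UMIs, which allows at most 1.67 CPM (3 counts), at least 5.36-fold lower than the 8.94 of the pooled monocyte-derived cells. NK cells had 0 of 6005093, which allows 0.50, at least 17.9-fold lower. These limits cover counting error only. Ndufa4 (chr6:11900292-11907497) split the conventional dendritic types: it averaged 274 ± 14.8 in cDC1 and 90.6 ± 15.1 CPM in cDC2 (SD, n = 7 each), and the libraries did not overlap (259 to 302 against 77.0 to 120). That difference was not tested. Ndufa4l2, Cox7a1, Cox6b2 and Cox8b averaged under 10 CPM in every class.

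**Figure D4:**
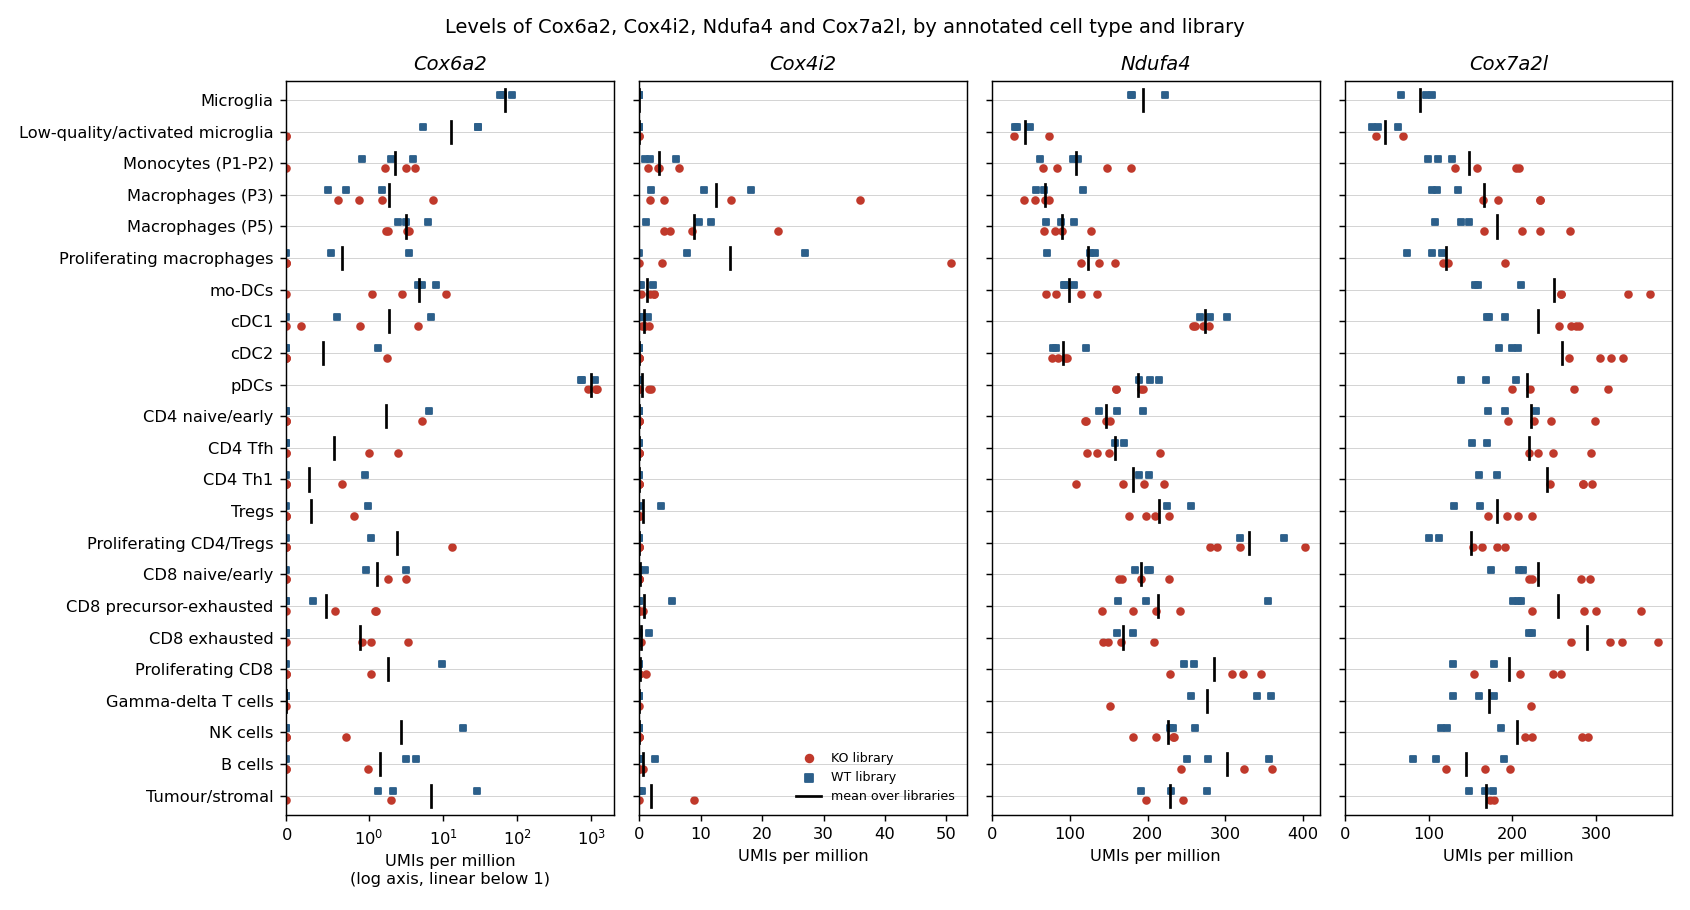
Levels of Cox6a2 (log axis, linear below 1), Cox4i2, Ndufa4 and Cox7a2l in CPM by annotated cell type; points are libraries (KO circles, WT squares) and bars the mean over libraries with at least 20 cells. Cox6a2 stands near 1000 in plasmacytoid dendritic cells (mean 996), Cox4i2 is highest in macrophages, Ndufa4 is high in cDC1 and low in cDC2, and for Cox7a2l the KO points lie to the right of the WT points in many types.

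The study's own question is what deletion of Siglece in microglia does, so each class was compared between KO and WT mice (edgeR's quasi-likelihood test). With up to 4 mice against 3, 0 members were called in any of the 9 classes. Of all genes 0.0415% were called in microglia, 0.0450% in plasmacytoid dendritic cells, 0.0141% in NK cells, 0.0288% in tumour or stromal cells and 0% in the other 5. The lowest adjusted p among members was 0.0853, in microglia. DESeq2 called Cox7a2l, described below, in monocyte-derived cells, mo-DCs and conventional dendritic cells. Without the filter on low counts edgeR called Uqcrb and Atp5pb in microglia (adjusted p = 0.0134 and 0.0409), Cox7a2l in mo-DCs, conventional dendritic cells and NK cells, and Cox4i2 and Ndufa4l2 in tumour or stromal cells. Of the UMIs behind these last calls, all 36 of Ndufa4l2 and 18 of 19 of Cox4i2 were in KO mouse 2. Without KO mouse 4, which leaves KO mouse 2 as the only KO library, the log2 fold change of Ndufa4l2 was 7.92. At an unadjusted p under 0.05, 20 of 74 nuclear members passed in microglia, against 11.8% of all genes there; the count was 13 without WT mouse 2, 11 without WT mouse 3, 8 by DESeq2 and 7 with replicate number as a block. Elsewhere the members' counts were 5 of 79 in monocyte-derived cells (5.65% of all genes), 3 of 76 in mo-DCs (7.60%), 2 of 75 in conventional dendritic cells (6.95%) and 3 of 74 in plasmacytoid ones (6.38%). The counts were 2 of 76 in T cells (6.56% of all genes), 2 of 73 in NK cells (4.09%), 0 of 73 in B cells (0.947%) and 5 of 73 in tumour or stromal cells (8.62%).

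In microglia the summed nuclear level was 8390, 6832 and 7635 CPM in KO mice 1, 2 and 4 and 9581, 10483 and 11027 in WT mice 1 to 3. Every KO library was below every WT library (7619 ± 779 against 10364 ± 730, SD, n = 3 each). The KO minus WT difference was -2745 CPM from summed UMIs and -1793.4 CPM when the share was averaged over cells, again without overlap. The same held for each complex, at mean levels of 2371 against 3250 for complex I, 701 against 1103 for III, 2036 against 2675 for IV and 2511 against 3335 for V. Of 74 nuclear members 28 had all KO below all WT, where 9.75% of all genes did, and their median log2 fold change was -0.40. The mitochondrial sum overlapped between genotypes, at 29812, 25304 and 20067 in KO and 22305, 18042 and 20117 in WT.

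The 2 members with the lowest p were Uqcrb and Atp5pb. Uqcrb (chr13:66900617-66905378) stood at 91.1, 19.6 and 77.8 CPM in KO (17, 1 and 14 UMIs) and 183, 150 and 204 in WT, with no overlap (log2 fold change -1.26, SE 0.31, adjusted p = 0.0853). Atp5pb, the peripheral stalk subunit b of ATP synthase, stood at 64.3, 19.6 and 94.4 in KO and 161, 156 and 160 in WT, again with no overlap (-1.16, SE 0.32, adjusted p = 0.0992). Neither passed the threshold with the filter on low counts.

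The make-up of the microglia moved with genotype. Low-quality or activated cells gave 38.6%, 47.3% and 45.3% of microglial UMIs in KO mice 1, 2 and 4 and 33.5%, 24.8% and 27.2% in WT mice, without overlap. Within that cluster the nuclear sum was 3534, 3425, 2651 and 3740 in KO mice 1 to 4 and 3300, 3765 and 4925 in WT mice, which overlap; KO mice 2 and 3 had only 14 and 13 cells there. Just 5 nuclear members could be tested in that cluster, and 0 of them passed an unadjusted p under 0.05. In the main cluster it was 11442, 9893 and 10853 in KO mice 1, 2 and 4, on only 10, 7 and 15 cells, and 12748, 12702 and 13308 in WT mice, on 44, 48 and 39 cells, so that every KO value was below every WT value there too. T cell markers (7 genes) summed to 69.7 to 137 CPM in KO and 12.6 to 38.7 in WT microglia, also without overlap. The part of the make-up or of T cell RNA in the genotype difference was not tested beyond these values.

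**Figure D5:**
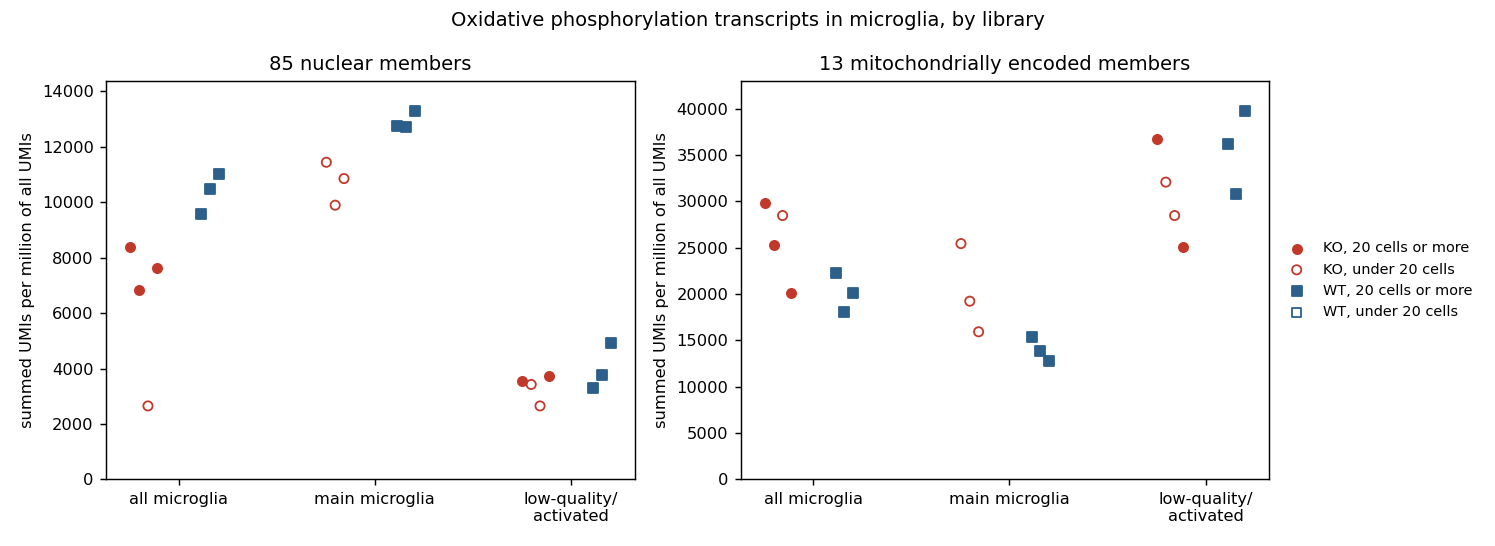
Summed CPM of nuclear (left) and mitochondrially encoded (right) members in all microglia, the main cluster and the low-quality or activated cluster, by library; filled points have at least 20 cells and open points fewer. In all microglia the KO libraries with enough cells (6832 to 8390) lie below the WT libraries (9581 to 11027) for the nuclear sum, while within the low-quality cluster the genotypes overlap.

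The genotype effect was also compared between classes. Between microglia and monocyte-derived cells of the same mice it differed at an adjusted p under 0.05 for 2 members, Uqcrb (difference of log2 fold changes -1.49, SE 0.34, adjusted p = 0.00707) and Atp5pb (-1.49, SE 0.34, adjusted p = 0.00767), and for 0.414% of all genes (edgeR). A total of 33 of 79 nuclear members passed an unadjusted p under 0.05, against 9.76% of all genes. Without KO mouse 1, or without WT mouse 1, 0 members were called. Between T cells and monocyte-derived cells 0 members were called by edgeR, as were 0% of all genes, and 1 nuclear member passed an unadjusted p under 0.05 (5.01% of all genes).

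Outside microglia the summed nuclear level overlapped between genotypes in every class, for example 17611 ± 1336 in KO (n = 4) and 17736 ± 1081 in WT (n = 3) T cells, and 15585 ± 2340 and 15476 ± 1231 in monocyte-derived cells. In tumour or stromal cells (2 KO and 3 WT libraries) the sums of complex III (1441 to 1448 against 1529 to 1571) and complex IV (3963 to 4040 against 4203 to 4293) were lower in KO without overlap, as was the nuclear sum when averaged over cells (16149 to 16400 against 16582 to 16784). With so few libraries a sum can easily lie apart by chance, and nuclear and mitochondrial complex sums were looked at in all 9 classes. In tumour or stromal cells the sums of complexes I and V overlapped, and the share of all genes that lay apart is not given. T cell markers (7 genes, 52.1 to 82.9 CPM in KO and 3.82 to 8.40 in WT) and proliferation markers (3 genes, 543 to 643 and 717 to 759) also lay apart there, and their part was not tested. In the other 7 classes the nuclear sum of each complex overlapped. The mitochondrial sum overlapped in all 9 classes, but that of its complex I members did not in conventional dendritic cells (1486 to 1696 in KO and 1137 to 1426 in WT), where T cell markers were apart too (63.8 to 116 in KO, 8.99 to 35.2 in WT). So was the median percentage of mitochondrial UMIs per cell, which includes the members, at 1.12% to 1.30% in KO and 1.01% to 1.10% in WT. The part of these was not tested. Next to Cox7a2l, the lowest p in monocyte-derived cells was that of Uqcrfs1, the iron-sulphur subunit of complex III (log2 fold change 0.42, SE 0.14, adjusted p = 0.827), and in T cells that of the complex I subunit Ndufa3 (-0.46, SE 0.17, adjusted p = 0.722). In mo-DCs 14 of 76 nuclear members had all KO above all WT, against 5.35% of all genes. At an unadjusted p under 0.05 (edgeR) 3 of 76 passed, against 7.60% of all genes. Such counts of members without overlap are given only for this class and direction and for all KO below all WT in microglia. They were picked from the 9 classes and both directions, so the excess over all genes is not read as a result. The summed nuclear level of mo-DCs overlapped, at 15386 to 17778 CPM in KO and 14167 to 17483 in WT. Marker lists of other cells moved with genotype in mo-DCs without overlap: T cell markers (7 genes) summed to 54.4 to 209 CPM in KO and 16.8 to 47.7 in WT, and plasmacytoid markers (6 genes) to 414 to 542 in KO and 643 to 1082 in WT. The plasmacytoid sum was mostly Bst2 there (mean 557 of 623), while Ccr9, Klk1 and Ly6d averaged 12.0, 16.0 and 11.25. The median percentage of ribosomal protein UMIs per cell was also apart, at 16.7% to 17.6% in KO and 13.5% to 16.3% in WT. Their part in the count was not tested.

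Cox7a2l (chr17:83501918-83517330), a subunit 7a relative that helps join complexes III and IV into supercomplexes, was higher in KO than in WT libraries in several classes. In conventional dendritic cells it stood at 259, 281, 293 and 282 CPM in KO mice 1 to 4 and 190, 179 and 176 in WT mice 1 to 3. All KO libraries were above all WT libraries (log2 fold change 0.59, SE 0.10), but edgeR's adjusted p was 0.53, with 8.34e-05 to 0.875 over the alternatives. In monocyte-derived cells the levels were 187, 228, 243 and 162 against 133, 133 and 101 (0.75, SE 0.16, adjusted p = 0.827; 0.0111 to 1 over the alternatives). The libraries were likewise apart in mo-DCs (0.76), T cells (0.63) and NK cells (0.86), which makes 5 of 9 classes, but these come from the same 7 mice and are not independent. In mo-DCs 5.35% of all genes had all KO above all WT, and that share is not given for the other classes. How many genes, or how many other members, were apart in as many classes was not counted, and Cox7a2l was picked from 98 members. Marker lists of other cells also lay apart by genotype in these classes. T cell markers summed to 63.8 to 116 CPM in KO and 8.99 to 35.2 in WT conventional dendritic cells, and to 46.3 to 72.6 against 14.4 to 32.7 in monocyte-derived cells. Plasmacytoid markers were lower in KO in monocyte-derived cells (389 to 770 against 855 to 1084), T cells (136 to 186 against 206 to 447) and NK cells (106 to 193 against 224 to 238). These sums mostly follow Bst2, which averaged 174 of 183 CPM in NK cells and 708 of 722 in monocytes. In precursor-exhausted CD8 T cells it averaged 157 of 165. Ccr9, Klk1 and Ly6d averaged 1.42, 1.10 and 2.2 in NK cells. Monocyte-derived markers were lower in KO NK cells (710 to 1087 against 1176 to 1367). The marker sums of mo-DCs are given above. The median percentage of mitochondrial UMIs was also apart in conventional dendritic cells, as given above. The part of these in the Cox7a2l difference was not tested.

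In plasmacytoid cells (0.51), B cells (0.32), tumour or stromal cells (0.10) and microglia the KO and WT libraries overlapped; in microglia the log2 fold change was 0.10 and turned to -0.0097 without the filter on low counts. The difference between its effects in microglia and in monocyte-derived cells had an adjusted p of 0.576. Under 1 or more alternatives Cox7a2l was called in 4 classes: by DESeq2 in monocyte-derived cells, mo-DCs and conventional dendritic cells, and by edgeR without the filter in mo-DCs, conventional dendritic and NK cells. Only KO mice carried the Sall1CreERT2 allele, which the labels place on a B6;129 background, so loss of Siglece, the Cre allele and any strain sequence that came with it cannot be told apart here.

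Other genes of the pathway were counted in the same contrasts. In microglia against monocyte-derived cells, 3 of 4 complex II subunits and Cyc1, Cycs and Ndufab1 were lower. Of 27 assembly factors 8 were lower and 2 higher, Cox15 (log2 fold change 0.89) and Ndufaf7 (0.79); the 8 are near the 23.9% of all genes that were lower there. Cycs ranged from 26.1 to 175 CPM in microglia (median 131) and from 172 to 389 (median 277) in monocyte-derived cells, which overlap (-1.68, SE 0.18). In macrophages against monocytes 9 of 27 assembly factors were higher and 2 lower, against 17.3% and 18.5% of all genes; Ndufaf4 (0.78) and Atpaf1 (0.92) were among those higher. In exhausted CD8 T cells 7 of 27 assembly factors were lower and 1, Cox11, was higher (0.62, SE 0.14), against 9.52% and 9.10% of all genes. Among regulators of mitochondrial transcription and biogenesis, 5 of 12 were higher and 5 lower in T cells than in monocyte-derived cells, near the 37.2% and 35.2% of all genes. In plasmacytoid against conventional dendritic cells 0 of 11 were higher and 3 lower, against 28.0% and 32.3% of all genes.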

How the data were processed

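The authors deposited 1 gene by cell matrix of estimated counts of UMIs (7.51% of nonzero values were not whole) and a table of cells with an annotation. That deposited table also holds the authors' counts of UMIs and genes and their percent of mitochondrial and ribosomal UMIs in each cell. Per the submitters' processing notes, FastQC 0.11.5, STAR 2.7.10a, STARsolo and the mm10 build were used; how reads that match several genes were split is not given in the sources used here. Cells had at most 19.8% mitochondrial UMIs, and no further filter or doublet caller was applied. Sums per mouse and class were formed from the fractional values, then rounded. The design had assumed whole UMIs. edgeR 4.0.16 (TMM, filterByExpr, robust quasi-likelihood fit; R 4.3.3) was fitted on all genes, with Benjamini-Hochberg adjustment; genotype fits used the libraries of 1 class, contrasts between types had mouse as a block, and the difference of genotype effects used an interaction term. DESeq2 1.42.0, no filter, no TMM, other cell minimums and whole parts of values were alternatives, and KO and WT libraries were left out in turn. Libraries under 20 cells were left out: KO 3 for microglia, KO 1 for B cells, KO 1 and KO 3 for tumour or stromal cells. The genotype test and the test between types were checked on counts simulated from monocyte-derived cells, with large changes in well-counted genes. Microglia, smaller changes and the interaction term were not simulated. Coordinates and sequences are from GENCODE M21 (GRCm38). Named genes are all mitochondrial members, isoform families, up to 4 members per direction in each contrast among those called and changed the same way in every mouse, and, for genotype, the 2 lowest p in microglia, monocyte-derived cells and T cells; Cox11, Surf1 and the other pathway genes are examples from a longer list. The members and lists were chosen with earlier results of these data known.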

Additional observations from a re-analysis of the deposited data

Results flagged for a closer look

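Among the 4 KO libraries, the nuclear sum in monocyte-derived cells was 19067 CPM in KO mouse 1 and 14009 to 14686 in the others. That library had 332 such cells. A library far from the rest (Dixon's test) was looked for in 22 groups of 4 KO libraries, and chance alone would set 1 aside in about 20; the groups of 3 WT libraries were not examined. The genotype effect of Uqcrb and of Atp5pb differed between microglia and monocyte-derived cells by -1.49 each on the log2 scale, with the values given above, and neither was called without KO mouse 1 or without WT mouse 1. Rows with "-ps" in their names, left out by the symbol rule, also held UMIs over all cells: Ndufb1-ps 27057, Ndufa12-ps 4417, Ndufs5-ps 2254, Atp5pb-ps 688, Cox7c-ps1 686, Atp5l-ps1 642, Atp5l2-ps 232, Cox5b-ps 229, Uqcrh-ps1 36.2, Atp5l-ps2 9.54, Atp5c1-ps 7.5 and Atp5k-ps2 4.5.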

How the results depend on the processing

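The microglia comparison rests on 21 to 113 cells in the libraries used, so single members had few UMIs (1 to 17 for Uqcrb in KO). Without the filter on low counts, members called between genotypes went from 0 to 2 in microglia, 1 in mo-DCs, 1 in conventional dendritic cells, 1 in NK cells and 2 in tumour or stromal cells; DESeq2 called 1 each in monocyte-derived cells, mo-DCs and conventional dendritic cells. Leaving out 1 library gave 0 to 3 members for the difference of genotype effects (0 without KO 1 or WT 1). In tumour or stromal cells the result changed without KO 4, but that fit left 1 KO library and its count is not given. Nuclear members at an unadjusted p under 0.05 in microglia were 20, 8 by DESeq2, 7 with replicate number as a block; in the low-quality cluster alone (at least 10 cells, 7 libraries) only 5 nuclear members could be tested against 74, and 0 passed and 0 had all KO below all WT, so these counts cannot be set beside those of all microglia (20 and 28); leaving out 1 library gave 11 to 23 (13 without WT 2, 11 without WT 3). Same-numbered KO and WT libraries had correlations of -0.279 to 0.105 in the 4 classes checked (3 pairs each, 2 in microglia, at -0.014 and -0.005), so the numbers were not taken as pairs; the replicate block left members called at 0 in the 8 classes where it was fitted (tumour or stromal cells were not).

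Without TMM, T cells had 32 nuclear members higher and 17 lower, macrophages 29 and 3, proliferating macrophages 32 higher, plasmacytoid cells 13 higher, microglia 3 higher with 13 mitochondrial members, and exhausted CD8 T cells 17 lower with 5 mitochondrial members higher. Without the filter these were 2 mitochondrial members higher in microglia, 1 mitochondrial member lower in plasmacytoid cells, 4 nuclear members lower in macrophages, and in exhausted cells 0 nuclear and 1 mitochondrial member higher. DESeq2 gave 3 nuclear members lower in proliferating macrophages (3 also with whole parts of values) and, in exhausted cells, 0 nuclear and 1 mitochondrial member higher. The main microglia cluster alone gave 2 nuclear members higher and 38 lower, and 0 mitochondrial members higher and 5 lower. The cause of these shifts was not tested.

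Leaving out 1 library in turn gave these ranges. Mitochondrial members higher in microglia were 1 to 5 (1 without WT 1, 2 without WT 2 and 2 without WT 3), those lower in plasmacytoid cells 0 to 1 (1 without WT 1) and those higher in proliferating CD8 T cells 4 to 8 (4 without WT 3). Nuclear members in macrophages were 6 to 10 higher (6 without WT 1) and 4 to 11 lower (4 without WT 3). In exhausted cells nuclear members were 0 to 1 higher (0 without KO 4, WT 2 or WT 3) and 13 to 27 lower (13 without KO 4, 14 without WT 3), and mitochondrial members 0 to 2 higher (0 without KO 4, and 1 without KO 1, WT 2 or WT 3).

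Log2 fold changes that turned sign were these: Cox7a2l by genotype in microglia, -0.0097 without the filter and -0.016 with the replicate block; microglia against monocyte-derived cells, mt-Co1 0.37 and mt-Co2 0.34 without TMM, mt-Atp6 -0.032, mt-Atp8 -0.047 and mt-Co3 -0.030 without the filter, mt-Atp6 -0.014 to 0.15 and mt-Atp8 -0.031 to 0.12 with 1 library left out (lowest without KO 1), and in the main cluster alone mt-Atp6 -0.42, mt-Atp8 -0.50, mt-Co3 -0.41, mt-Cytb -0.16, mt-Nd4 -0.20, mt-Nd4l -0.32 and mt-Nd5 -0.27. Others were mt-Nd3 in proliferating CD8 T cells, 0.20 with whole parts, mt-Nd4l in exhausted CD8 T cells, -0.0068 without the filter and -0.0056 with whole parts, and mt-Nd6 in proliferating macrophages, -0.02 without KO 4.

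Averaging the share over cells in place of summing UMIs gave nuclear sums of 6720 in microglia (12213 in the main cluster), 12712 in B cells, 16353 in T cells and 16736 in conventional dendritic cells, mitochondrial sums of 27502 in microglia (15458 in the main cluster), and a KO minus WT difference of -1793 in microglia (-2745 from summed UMIs). With the UMIs of the 6 copies added, chosen after seeing the data, the mitochondrial sums were 29459 in microglia (18198 in the main cluster), 19067 in monocyte-derived cells, 10701 in mo-DCs, 10093 in conventional and 20141 in plasmacytoid dendritic cells, 10975 in T, 10605 in NK, 11739 in B and 8035 in tumour or stromal cells.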
